A study of Mus musculus with 9 samples.

Results

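The genes described here are used as markers of basal and myoepithelial cells and were read in the mouse sublingual salivary gland. They are the keratins Krt5, Krt14 and Krt15, the transcription factor Trp63, the contractile genes Acta2, Myh11, Cnn1, Tagln and Mylk, and the receptor gene Oxtr. These 10 genes were chosen by symbol, for their use as markers and with earlier results of these data known, out of 54532 genes counted. RNA-seq was run on tissue sections of sublingual glands of wild-type mice. The 3 groups were glands taken 7 days after irradiation with 10 Gy (day 7), glands taken 14 days after irradiation with 10 Gy (day 14) and glands that received no radiation (control), with 3 libraries each. The labels give no age, sex, collection time or source animal for a library, so p-values cover the spread between libraries, part of which may be technical. All 10 genes were counted, and 8 passed the filter on low counts. Krt15 and Oxtr did not.

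Basal cells sit between the luminal cells of a duct or acinus and the basement membrane. They carry keratin filaments made of the paired proteins keratin 5 and keratin 14, and their identity depends on p63, the protein of Trp63. Myoepithelial cells are basal cells that wrap acini and the first ducts, and they contract to help move saliva. Their contractile machinery is that of smooth muscle: calcium bound to calmodulin switches on myosin light chain kinase, which phosphorylates the myosin light chain so that smooth muscle myosin can pull on alpha smooth muscle actin. The contractile genes are therefore shared with the smooth muscle of vessel walls, which the sections also held. In RNA from whole tissue, fewer cells of a type and less RNA per cell cannot be told apart.

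Levels are counts scaled to a common library total with TMM factors (CPM), and changes are log2 fold changes with standard error (SE) from edgeR's quasi-likelihood test, with Benjamini-Hochberg adjusted p over all 15348 tested genes and a threshold of 0.05. Libraries held 15962399 to 19441239 counts, so that 3 counts equalled 0.154 to 0.188 CPM, and the biological coefficient of variation was 16.1%. Of all tested genes, 30.6% passed at day 7 against control, 1.76% when day 14 was set against control and 6.59% between the 2 irradiated groups. Fold changes of all genes moved with gene length, and for that reason values after a correction for exonic length and GC content are given beside the members' own. It is called the length correction below, though the parts of length and GC content in it were not separated. Of the genes called at day 7, 51.6% were higher, and 40.1% after this correction. The secretory genes of the acinar list were abundant in every library, with summed levels of 235000 to 252000 CPM at day 7, 258000 to 283000 CPM at day 14 and 255000 to 351000 CPM in controls. At day 7, 7 of 10 tested acinar genes fell and 1 rose, where 14.8% of all tested genes fell and 15.8% rose. Their median log2 change was −0.54, and 5 were lower and 0 higher after the length correction. At day 14, 3 were higher than at day 7 (1 after the correction), where 3.72% of all tested genes were. Genes of oral squamous epithelium and skeletal muscle, tissues that border the gland, summed to at most 17.6 and 11.1 CPM in any library.

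At day 7, 1 of the 8 tested members rose, the smooth muscle myosin gene Myh11, and 7 did not pass, against 15.8% of all tested genes higher and 14.8% lower. By edgeR 0 members fell, and Myh11 alone had an unadjusted p under 0.05, which 41% of all genes had. DESeq2 and limma-voom also called Myh11 alone, out of 32.3% and 38.6% of all genes.

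For day 14 over control, edgeR called 0 of 8 members in either direction, where 1.13% of all genes were higher and 0.632% lower, and 4 members had an unadjusted p under 0.05 (21.3% of all genes). DESeq2 called Mylk, with 6.79% of all genes called, and limma-voom called Myh11, Mylk and Trp63, with 10.1%, each of them higher at day 14. For day 14 over day 7, edgeR called 0 of 8, where 3.72% of all genes were higher and 2.87% lower, and 2 members had an unadjusted p under 0.05 (22.7% of all genes). DESeq2 and limma-voom each called Cnn1 as higher, out of 9.24% and 11.5% of all genes. With no filter on low counts Mylk and Oxtr were called for day 14 over control and Cnn1 and Oxtr for day 14 over day 7, out of 4.75% and 5.09% of genes. Day 14 library 3 alone held 36 of the 45 Oxtr counts at day 14. After the length correction 0 members were called in these comparisons, with 0.912% and 5.85% of all genes called. The members' median log2 change was 0.00 at day 7, 0.10 at day 14 and 0.10 between the days, beside 0.02, 0.01 and 0.00 over all tested genes. The ratio of the highest to the lowest library was 1.23 for Acta2, 1.34 for Mylk, 1.39 for Krt5 and 1.41 for Krt14, while the median over all tested genes was 1.81. It was 1.94 for Tagln, which had the fewest counts of the tested members.

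**Figure D1:**
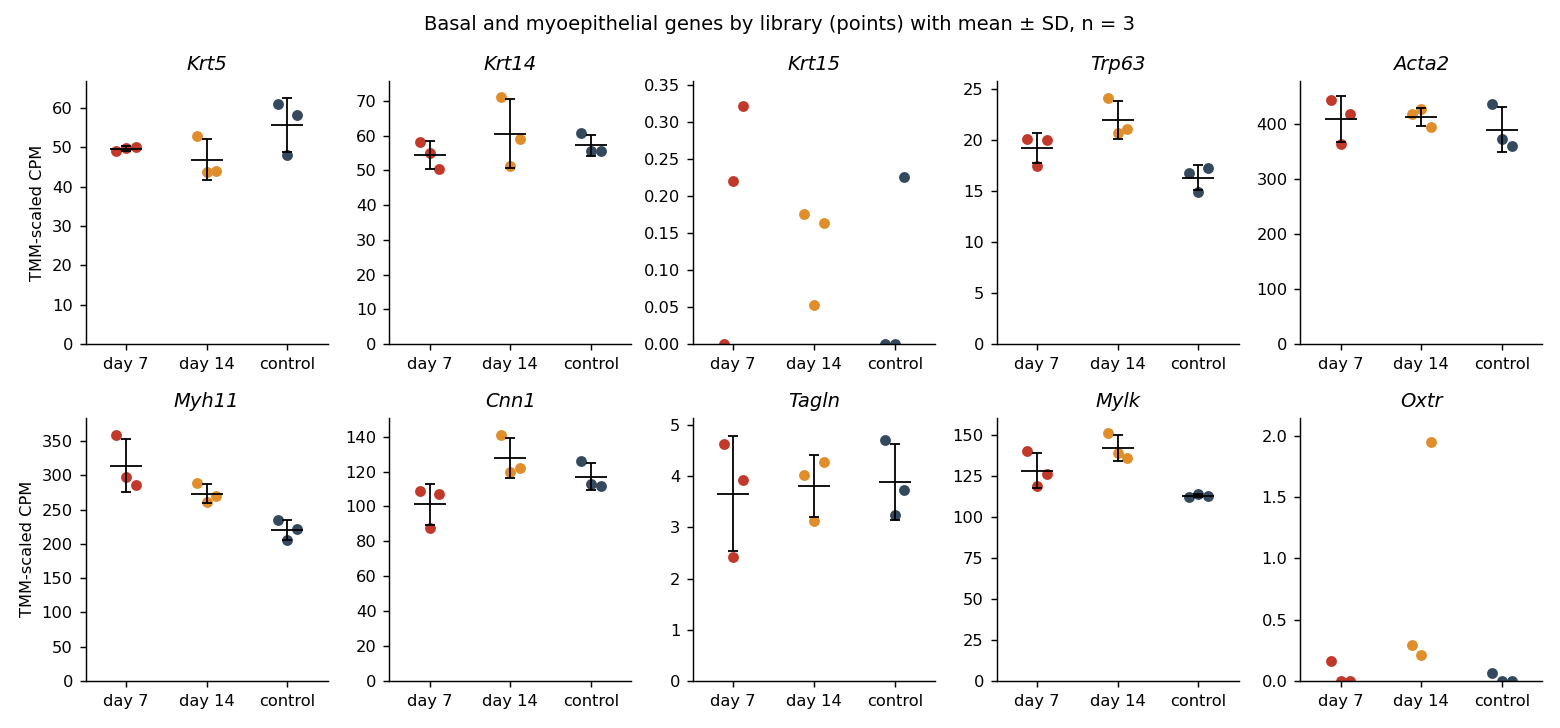
TMM-scaled CPM of the 10 genes in each library (points), by group from left to right (day 7, day 14, control), with the mean and SD of 3 libraries as bars except for Krt15 and Oxtr, which have too few counts. The day 7 and day 14 libraries of Myh11 all lie above the controls, while those of Acta2 and Krt14 overlap with them. Of all tested genes, 43.9% separated from the controls in either direction at day 7 and 23.1% at day 14.

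Per kilobase of exon, Acta2 was the most abundant member, at 164 to 202 CPM per kb over the 9 libraries. Cnn1 followed at 32.0 to 51.4 CPM per kb, Myh11 at 27.2 to 47.1 and Krt14 at 28.6 to 40.4, ranges that overlap. Krt5 lay at 19.9 to 27.8 CPM per kb and Mylk at 9.95 to 13.4. Trp63, at 1.78 to 2.87 CPM per kb, and Tagln, at 1.22 to 2.36, overlapped at the low end of the tested members. Krt15 reached at most 0.182 CPM per kb and Oxtr at most 0.407.

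Among the basal genes, Krt5 (ENSMUSG00000061527, GRCm38 chromosome 15, 101707070 to 101712898, minus strand) encodes the type II keratin of the basal pair. It had 49.0, 49.9 and 50.1 CPM in day 7 libraries 1 to 3, 52.9, 43.8 and 43.9 CPM in day 14 libraries 1 to 3, and 61.0, 48.0 and 58.2 CPM in control libraries 1 to 3. Both irradiated groups overlapped with the controls, whose library 2 was the lowest of that group. The log2 change was −0.17 at day 7 (SE 0.112, adjusted p = 0.279) and −0.25 at day 14 (SE 0.113, 95% interval −0.49 to −0.01, adjusted p = 0.206). After the length correction these were 0.12 and −0.08.

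Krt14 (ENSMUSG00000045545, chromosome 11, 100203162 to 100207548, minus strand) encodes the type I partner of keratin 5. It had 58.2, 55.0 and 50.3 CPM at day 7, 71.1, 51.4 and 59.2 CPM at day 14, and 60.7, 55.5 and 55.5 CPM in controls. The groups overlapped, and day 14 library 1 was the highest of the 9. Its log2 change was −0.07 at day 7 (SE 0.115, 95% interval −0.31 to 0.17, adjusted p = 0.683) and 0.08 at day 14 (SE 0.115, 95% interval −0.16 to 0.32, adjusted p = 0.732). After the length correction it was 0.28 at both times (adjusted p = 0.0557 at day 7 and 0.171 at day 14). Krt17, a keratin of basal cells whose sequence is close to that of Krt14, so that reads may be split between them, averaged 15.7 ± 1.49 CPM at day 7, 14.7 ± 1.93 at day 14 and 18 ± 2.15 in controls (SD, n = 3 each) and did not pass in any comparison.

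Krt15, a type I keratin of basal cells in stratified epithelia (ENSMUSG00000054146), lies on the same strand of chromosome 11, 67233 bases from Krt14. It had 0, 4 and 6 counts at day 7, 3, 1 and 3 counts at day 14, and 0, 0 and 4 counts in controls, 21 counts in all. These counts lie at or near the floor of 3 counts a library, and a difference between the groups was not detectable at this depth. The stress keratins Krt6a and Krt16, near-identical to other keratins, had 20 and 3 counts over all libraries.

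Trp63 (ENSMUSG00000022510, chromosome 16, 25683763 to 25892102, plus strand) encodes p63, which keeps basal cells in the basal state. It had 20.1, 17.5 and 20 CPM at day 7, 24.1, 20.7 and 21.1 CPM at day 14, and 16.8, 14.9 and 17.3 CPM in controls. The day 7 libraries lay above every control, the day 14 libraries above both, a separation without overlap that 43.9% of all genes showed for day 7 over control, 23.1% for day 14 over control and 29.4% between the days. The log2 change was 0.23 at day 7 (SE 0.134, adjusted p = 0.198) and 0.43 at day 14 (SE 0.133, 95% interval 0.15 to 0.70, adjusted p = 0.0853), neither past the threshold. Trp63 is a long gene, with 8391 bases of exon, and the GC content of its longest transcript is 44.2%. After the length correction its change was −0.13 at day 7 and 0.18 at day 14.

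The keratins and Trp63 were next set against each other within each library, a comparison chosen after their values were seen and given without a test. The ratio of Trp63 to Krt5 counts was 0.411, 0.35 and 0.4 at day 7, 0.455, 0.472 and 0.481 at day 14, and 0.275, 0.311 and 0.297 in controls. The groups did not overlap, with day 14 highest and control lowest. How often ratios of other gene pairs separate was not computed. Of single genes, 43.9% separated in either direction for day 7 over control, 23.1% for day 14 over control and 29.4% between the days. Trp63 has the longer exons of the pair and the lower GC content in its longest transcript (44.2%, against 56.9% for Krt5). Its log2 difference from Krt5 was 0.39 at day 7 and 0.68 at day 14 on counts. After the correction for length and GC content it was −0.25 and 0.26, so the direction at day 7 turns round. The ratio of Krt14 to Krt5 counts was 1.19, 1.1 and 1.0 at day 7, 1.34, 1.17 and 1.35 at day 14, and 0.996, 1.16 and 0.953 in controls. Day 14 lay above the controls, and day 7 overlapped with both.

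Among other genes of the basal epithelium, several of the attachment to the basement membrane rose at day 7. Of 20 tested genes of this list (25 listed), 7 rose at day 7, 2 fell and 11 did not pass, where 15.8% of all genes rose and 14.8% fell. The median log2 change was 0.13 (0.18 after the length correction, with 7 higher and 2 lower). The genes that rose encode parts of the hemidesmosome, the junction that ties keratin filaments to the basement membrane (Itgb4, Itga6, Col17a1 and Dst), chains of laminin-332, its ligand (Lama3 and Lamb3), and the transcription factor Snai2. Of these, Snai2 (adjusted p = 0.0499) was called in the fit without control library 3 and in no other fit that omitted a library, and Col17a1 was not called when control library 1 or 2, or day 7 library 1, was omitted. Itgb4, the integrin beta 4 chain, had 112, 125 and 108 CPM at day 7, 62.5, 65.9 and 75.2 CPM at day 14, and 68.7, 69.8 and 69.1 CPM in controls. Every day 7 library stood above the other 6. Of all tested genes, 43.9% separated day 7 from control in either direction, and 29.4% separated the days. The log2 change of Itgb4 was 0.73 at day 7 (SE 0.097, adjusted p = 4.11e-05) and −0.76 at day 14 against day 7 (SE 0.097, adjusted p = 0.000135), and it was −0.03 at day 14 against control (adjusted p = 0.902).

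Lama3, the laminin alpha 3 chain, had 36.9, 31.2 and 32.0 CPM at day 7, 20.3, 23.1 and 19.8 CPM at day 14, and 22.2, 17.3 and 20.6 CPM in controls. Its log2 change was 0.73 at day 7 (SE 0.131, adjusted p = 0.00045) and −0.66 at day 14 against day 7 (SE 0.13, adjusted p = 0.00542). Itga6, Dst and Lamb3 rose at day 7 by 0.59, 0.73 and 0.44 on the log2 scale (SE 0.105, 0.137 and 0.104). These 5 calls at day 7 held after the length correction, by 0.64 for Itgb4, 0.48 for Lama3, 0.32 for Itga6, 0.36 for Dst and 0.35 for Lamb3, and when any 1 library was left out. The genes that fell at day 7 were Sfn, the epithelial 14-3-3 protein (−0.98, SE 0.248; −0.60 and not called after the length correction), and the desmosomal plakophilin Pkp1 (−0.49, SE 0.164; not called with control library 1 or 3, or day 7 library 1 or 3, omitted). Between the days, 4 of the list fell (Itgb4, Dst, Lama3 and Lamb3) and Sfn rose, where 2.87% of all genes fell and 3.72% rose. The count of 4 became 2 when library 1 or 2 of either group was omitted, and Sfn was not called when any day 14 library, or day 7 library 1 or 3, was omitted. At day 14 against control Pkp1 alone passed (−0.80, SE 0.166), though not when control library 1 or 2, or day 14 library 2 or 3, was omitted.

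Genes that p63 is known to regulate or to work with were taken as a further list, of which 15 of 18 were tested. At day 7, 6 rose (15.8% of all genes did), 9 did not pass and 0 fell by edgeR, while DESeq2 called 1 lower and limma-voom 0. An unadjusted p under 0.05 was held by 8 of the list and by 41% of all genes. The 6 were the growth factor receptor Fgfr2 (0.70, SE 0.177), Notch1 (0.80, SE 0.196), the ubiquitin ligase Itch, the chromatin organiser Satb1 (0.68, SE 0.126), and the transcription factors Sox2 and Runx1. After the length correction 2 were called, Notch1 (0.56) and Sox2 (0.57), of which Sox2 was not called in the fits that omitted control library 1 and day 7 library 3. The median of the list was 0.34, or 0.21 after the correction. Klf5, a transcription factor of proliferating epithelium, fell at day 14 against day 7 (−0.48, SE 0.116), though not when day 14 library 1, or day 7 library 2 or 3, was omitted.

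Luminal genes were read beside the basal keratins. Of 10 luminal and ductal genes, 5 fell at day 7 (Krt8, Krt18, Krt23, Elf5 and Cldn4) and 0 rose by edgeR, DESeq2 or limma-voom. An unadjusted p under 0.05 was held by 7. Of all tested genes, 14.8% fell and 41% had such an unadjusted p. The 5 became 3 with day 7 library 1 or 3 omitted, and 2 after the length correction (Krt23 and Elf5). Krt18 and Krt8, the simple epithelial keratin pair, averaged 527 and 183 CPM per kb over the 9 libraries, against 32.7 for Krt14 and 23.1 for Krt5. Over the whole keratin family, 14 of 53 genes were tested and 29 had under 10 counts in all. At day 7, 4 keratins fell (Krt8, Krt18, Krt23 and Krt80), where 14.8% of all genes fell, and neither Krt5 nor Krt14 was among them. With the length correction Krt8 (−0.09) and Krt18 (0.12) were not called, and Krt23 (−0.28) and Krt80 (−0.76) were.

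**Figure D2:**
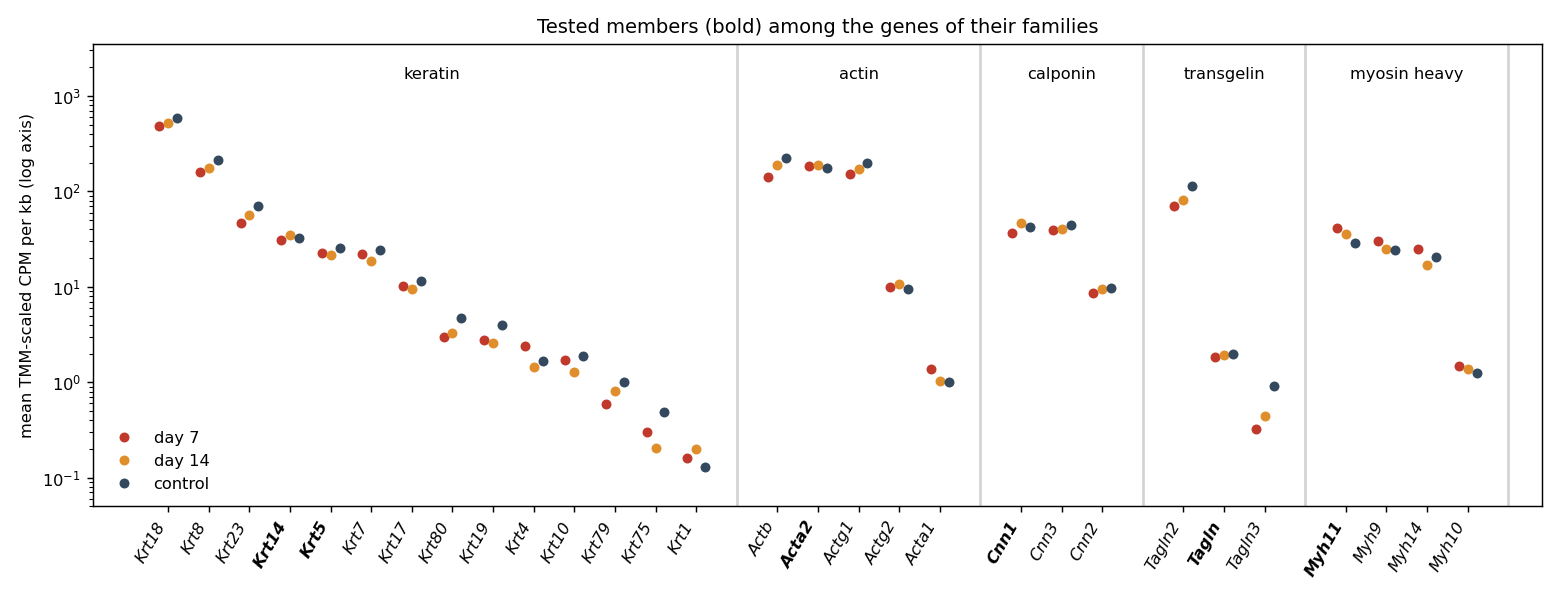
Mean TMM-scaled CPM per kilobase of exon (log axis) of the tested genes of 5 families, each with its day 7, day 14 and control mean from left to right. Acta2 lies level with the cytoplasmic actins Actb and Actg1, Tagln far below Tagln2, and Krt14 and Krt5 below Krt18, Krt8 and Krt23.

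The contractile genes are described in the order actin, myosin, its kinase and the actin-binding proteins. Smooth muscle genes are known for CArG boxes, the sites of serum response factor, and for MCAT elements, the sites of TEAD factors. The 250 bases before the start site were taken from RefSeq (GRCm38.p6), where 6 of the 10 members had an entry. The windows of Mylk and Krt14 lie wholly inside the gene as placed here, and those of Acta2, Cnn1 and Oxtr partly. For these genes the start used is therefore not the outer end of the gene. The motifs marked for Acta2 fall in the part of its window that lies inside the gene. The 250 bases were searched on both strands for CArG boxes with at most 1 G or C in the inner 6 bases (8.59% of 32851 mouse promoters hold one) and for MCAT elements, CATTCC or GGAATG (12.6%). Shown are Acta2, the actin, Mylk, the kinase, Krt5, a keratin, and Myl9, the regulatory light chain that the kinase phosphorylates, with CArG-like boxes and MCAT elements in capitals. The windows are chr19:34255374-34255623 on the minus strand, chr16:34784700-34784949 on the plus strand, chr15:101712906-101713155 on the minus strand and chr2:156775214-156775463 on the plus strand.
Acta2: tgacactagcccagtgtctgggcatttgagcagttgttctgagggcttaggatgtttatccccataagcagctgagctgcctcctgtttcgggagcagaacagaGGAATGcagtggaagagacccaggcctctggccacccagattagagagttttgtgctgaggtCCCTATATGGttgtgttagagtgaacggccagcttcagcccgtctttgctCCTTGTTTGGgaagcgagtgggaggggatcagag
Mylk: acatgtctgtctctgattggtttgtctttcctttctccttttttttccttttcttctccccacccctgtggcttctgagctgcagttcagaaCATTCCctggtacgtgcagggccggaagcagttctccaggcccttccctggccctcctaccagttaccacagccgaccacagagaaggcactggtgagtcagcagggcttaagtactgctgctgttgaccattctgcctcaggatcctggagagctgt
Krt5: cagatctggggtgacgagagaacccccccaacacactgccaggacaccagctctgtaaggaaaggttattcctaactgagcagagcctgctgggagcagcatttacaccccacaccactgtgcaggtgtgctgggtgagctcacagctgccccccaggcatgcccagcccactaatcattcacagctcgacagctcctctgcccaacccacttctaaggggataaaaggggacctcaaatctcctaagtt
Myl9: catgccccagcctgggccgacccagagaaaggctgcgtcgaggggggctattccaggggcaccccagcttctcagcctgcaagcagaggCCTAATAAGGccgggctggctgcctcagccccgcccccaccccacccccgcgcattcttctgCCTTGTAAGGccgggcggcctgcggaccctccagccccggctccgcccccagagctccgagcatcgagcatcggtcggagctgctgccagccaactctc
The Acta2 window held CArG-like boxes that begin 84 and 34 bases before the start and an MCAT element at 146. Myl9 held CArG-like boxes at 161 and 99 bases, Mylk an MCAT element at 158, and Krt5 neither motif. Of the other members with an entry, Krt14 held an MCAT element at 66 bases and Cnn1 and Oxtr held neither motif. These matches describe letters in the windows and do not show that a factor is bound.

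Acta2 (ENSMUSG00000035783, chromosome 19, 34241090 to 34255590, minus strand) encodes alpha smooth muscle actin. It had 444, 363 and 419 CPM at day 7, 418, 427 and 395 CPM at day 14, and 436, 372 and 360 CPM in controls. The 3 groups overlapped throughout. The change of Acta2 on the log2 scale was 0.07 at day 7 (SE 0.098, 95% interval −0.14 to 0.27, adjusted p = 0.635) and 0.09 at day 14 (SE 0.098, 95% interval −0.12 to 0.29, adjusted p = 0.656). After the length correction the day 7 value was 0.27 and just past the threshold (adjusted p = 0.0493). Actg2, the gamma smooth muscle actin, a close copy of Acta2, averaged 15.4 ± 2.38 CPM at day 7, 16.9 ± 2.37 at day 14 and 14.8 ± 0.154 in controls (SD, n = 3 each) and did not pass either. The skeletal and cardiac actins Acta1 and Actc1 had 282 and 13 counts over all libraries.

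Fibroblasts can express Acta2 too. Of 14 fibroblast genes, 5 rose at day 7 (Col1a1, Col1a2, Col3a1, Dpp4 and Postn), where 15.8% of all genes rose. The 5 became 3 with control library 1 or 2, or day 7 library 3, omitted, and 2 after the length correction (Col1a1 and Col1a2), when Dcn was lower and the median was 0.04 (0.19 without the correction). The summed level of the 14 genes was 921 to 1130 CPM at day 7, 983 to 1370 CPM at day 14 and 920 to 994 CPM in controls. Their part in the level of Acta2 was not tested.

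The cytoplasmic actins, taken up after their values were seen, are used by nearly every cell. Actb fell at day 7 by 0.68 on the log2 scale (SE 0.1, adjusted p = 9.12e-05; −0.51 after the length correction). Actg1 fell by 0.37 (SE 0.096, adjusted p = 0.00674), to −0.18 and no longer called after the correction. Per kilobase, Actb, Acta2 and Actg1 were close over the 9 libraries, at 184, 184 and 174 CPM per kb.

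Myh11 (ENSMUSG00000018830, chromosome 16, 14194535 to 14291372, minus strand) encodes the smooth muscle myosin heavy chain, the motor of the contractile filaments. It had 358, 298 and 286 CPM at day 7, 288, 261 and 269 CPM at day 14, and 235, 206 and 221 CPM in controls. All day 7 and all day 14 libraries were above all controls, and the day 7 libraries overlapped with those of day 14. Of all tested genes, 43.9% separated from the controls in either direction at day 7 and 23.1% at day 14. At day 7 Myh11 rose 1.42-fold (log2 0.51, SE 0.097, 95% interval 0.30 to 0.71, adjusted p = 0.000789). It was called in all 19 other fits that were run, with a log2 change of 0.34 to 0.57, and after the length correction the change was 0.34 (adjusted p = 0.00804). At day 14 the log2 change was 0.30 (SE 0.097, 95% interval 0.10 to 0.51, adjusted p = 0.089), and day 14 lay −0.20 from day 7 (SE 0.097, adjusted p = 0.215), neither past the threshold.

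Vessel wall genes were read beside Myh11, because mural cells express it too. Of 17 tested mural genes, Notch3, Cspg4 and Mcam rose at day 7, Des fell and 13 did not pass, near the 15.8% of all genes that rose and under the 14.8% that fell. With the length correction Mcam alone was called, while without that correction the number that rose was 0 with library 2 of either group omitted and 1 with library 1 of either omitted. Des was not called when any control library, or day 7 library 1 or 3, was omitted, and 2 genes fell with day 14 library 1 or 2 omitted. The summed level of the 18 mural genes was 104 to 127 CPM at day 7, 79.2 to 107 CPM at day 14 and 86.9 to 110 CPM in controls, ranges that overlap, and Rgs5, a pericyte gene, averaged 35.9 ± 1.53, 31.5 ± 6.33 and 29.0 ± 5.72 CPM in the same order (SD, n = 3 each). The 10 endothelial genes summed to 436 to 521 CPM at day 7, 417 to 453 at day 14 and 356 to 400 in controls, most of it Vwf, at 393 ± 43.6, 365 ± 21.7 and 310 ± 19.4 CPM in the same order. Cldn5 had 9 to 35 counts at day 7, 22 to 29 at day 14 and 26 to 42 in controls, and did not pass. Of these 10, Tek and Vwf rose at day 7, where 15.8% of all genes rose. Neither was called when control library 2 or day 7 library 1 was omitted or after the length correction. The part of vessel cells in the level of Myh11 was not tested.

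Mylk (ENSMUSG00000022836, chromosome 16, 34745210 to 35002420, plus strand) encodes myosin light chain kinase, the switch that starts contraction. It had 140, 119 and 126 CPM at day 7, 151, 139 and 136 CPM at day 14, and 112, 114 and 113 CPM in controls. Both irradiated groups lay above the controls, a separation that 43.9% of all genes showed in either direction at day 7 and 23.1% at day 14. The control libraries of Mylk differed little from each other. The log2 change was 0.18 at day 7 (SE 0.089, adjusted p = 0.129) and 0.33 at day 14 (SE 0.089, 95% interval 0.14 to 0.51, unadjusted p = 0.00155, adjusted p = 0.0604), neither past the threshold. With 11263 bases of exon Mylk is the longest member, and after the length correction the values were −0.05 at day 7 and 0.22 at day 14.

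Cnn1 (ENSMUSG00000001349, chromosome 9, 22099216 to 22109630, plus strand) encodes calponin, an actin-binding protein of differentiated smooth muscle. It had 109, 87.7 and 107 CPM at day 7, 141, 120 and 122 CPM at day 14, and 126, 113 and 112 CPM in controls. The day 7 libraries lay below every control and every day 14 library, separations that 43.9% and 29.4% of all genes showed in either direction. On the log2 scale the change was −0.21 at day 7 (SE 0.102, 95% interval −0.42 to 0.00, adjusted p = 0.126), and day 14 lay 0.33 above day 7 (SE 0.102, 95% interval 0.12 to 0.54, unadjusted p = 0.00408, adjusted p = 0.056). Neither value passed, and after the length correction they were −0.05 and 0.25. Without control library 3 the difference between the days was called (adjusted p = 0.0485).

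Tagln (ENSMUSG00000032085, chromosome 9, 45929619 to 45936058, minus strand) encodes transgelin, or SM22, another actin-binding protein of smooth muscle. It had 4.62, 2.42 and 3.92 CPM at day 7, 4.03, 3.13 and 4.28 CPM at day 14, and 4.7, 3.24 and 3.73 CPM in controls. The groups overlapped, and library 2 was the lowest of each group. The log2 change was −0.09 at day 7 (SE 0.288, 95% interval −0.69 to 0.51) and −0.03 at day 14 (SE 0.288, 95% interval −0.63 to 0.57), intervals wide enough to hold a change as large as that of Myh11 in either direction. Tagln had 600 counts over the 9 libraries, where Acta2 had 64071. Of its 1988 exonic bases, 62.4% are shared with the gene Gm48529 and 5.43% with Pcsk7, both on the other strand. Whether reads were counted by strand is not stated, and the part of this overlap in the low count of Tagln was not tested. Tagln2, the transgelin of non-muscle cells, taken up after its value was seen, fell at day 7 by 0.68 (SE 0.101, adjusted p = 9.12e-05; −0.39 after the length correction).

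Oxtr (ENSMUSG00000049112, chromosome 6, 112473683 to 112489943, minus strand) encodes the oxytocin receptor, which makes the myoepithelium of the mammary gland contract. It had 3, 0 and 0 counts at day 7, 5, 4 and 36 counts at day 14, and 1, 0 and 0 counts in controls. All day 7 and control libraries were at or under the floor of 3 counts, and 36 of the 45 counts at day 14 came from library 3. No fold change is given for Oxtr, since its level rests on that library.

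**Figure D3:**
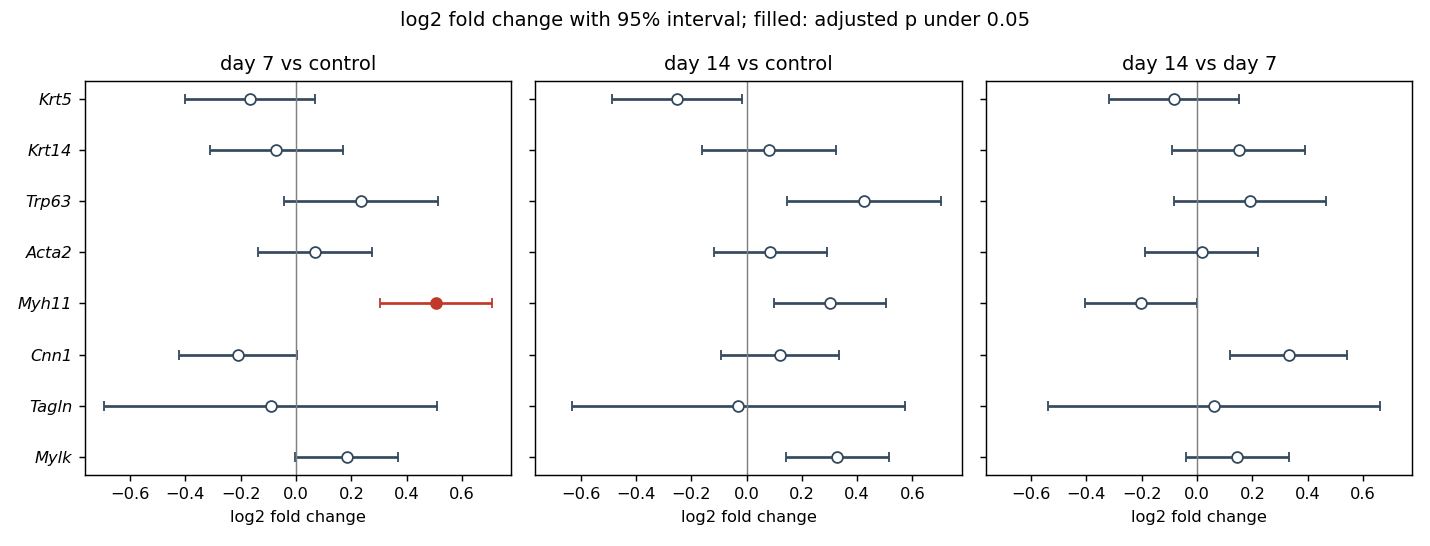
Log2 fold change of the 8 tested members in the 3 comparisons (day 7 over control, day 14 over control, day 14 over day 7), with 95% intervals from edgeR, filled where the adjusted p was under 0.05. Myh11 at day 7, at 0.51, is the filled point.

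The balance among the contractile genes was also followed within each library, again chosen after the values were seen and without a test. Myh11 counts per Acta2 count were 0.807, 0.821 and 0.683 at day 7, 0.688, 0.612 and 0.682 at day 14, and 0.54, 0.555 and 0.614 in controls. The day 7 libraries lay above all controls (log2 difference 0.43), and day 14 overlapped with both. Myh11 is the longer gene and differs in the GC content of its longest transcript (53.1%, against 49.6% for Acta2). After the correction for length and GC content this difference was 0.08. Cnn1 counts per Acta2 count were 0.245, 0.242 and 0.256 at day 7, 0.336, 0.281 and 0.309 at day 14, and 0.29, 0.304 and 0.31 in controls. Here day 7 lay below both other groups, which overlapped, and the log2 difference from control was −0.28, or −0.32 after the correction. Mylk counts per Acta2 count were 0.317, 0.327 and 0.3 at day 7, 0.36, 0.327 and 0.343 at day 14, and 0.257, 0.306 and 0.314 in controls, with day 14 above the controls and day 7 overlapping with both. The log2 difference of Mylk from Acta2 was 0.11 at day 7 and 0.24 at day 14, but −0.32 and 0.04 after the correction. For these pairs too, the share of other gene pairs whose ratios separate was not computed. Of single genes, 43.9% separated in either direction for day 7 over control, 23.1% for day 14 over control and 29.4% between the days.

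**Figure D4:**
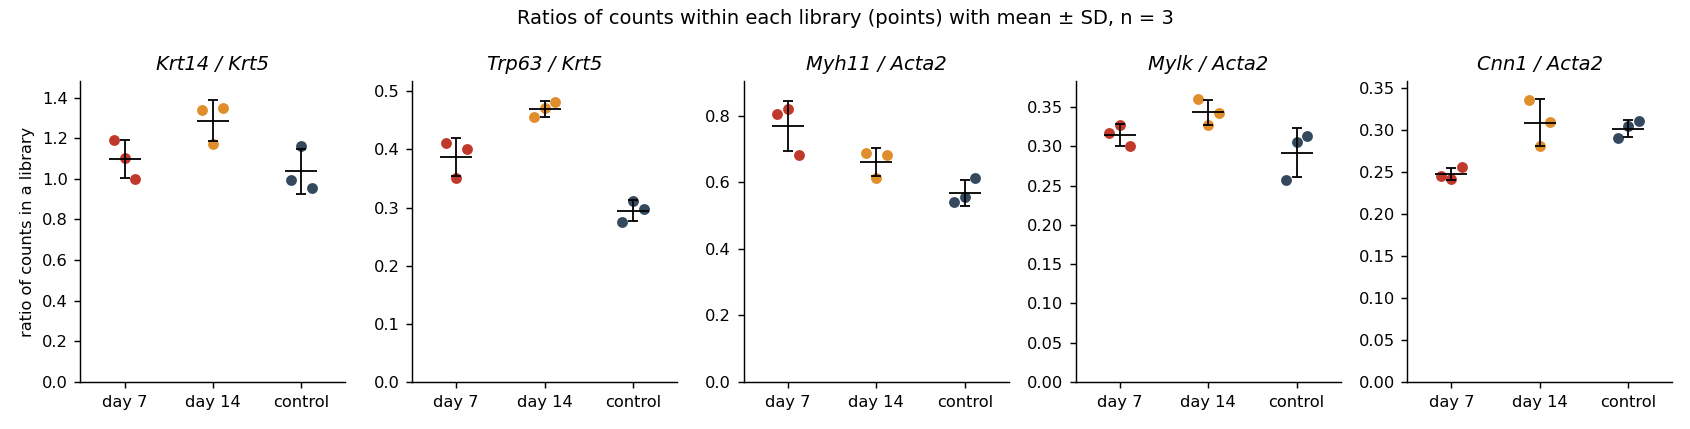
Ratio of the counts of a pair of members in each library (points), with the mean and SD of 3 libraries, by group from left to right (day 7, day 14, control). On these counts, not corrected for length and GC content, Trp63 per Krt5 separates all 3 groups and Cnn1 per Acta2 is lowest at day 7. How often ratios of other gene pairs separate was not computed. Corrected for length and GC content, Trp63 per Krt5 turns round at day 7 (log2 −0.25) and Myh11 per Acta2 moves to 0.08.

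Day 7 values of all tested genes moved with gene length, and the correction takes in GC content as well. Among all tested genes, those in length decile 2, which holds Krt14 and Tagln, had a median log2 change at day 7 of −0.33. The median was −0.21 in decile 3, with Krt5, Acta2 and Cnn1, 0.28 in decile 9, with Myh11 and Trp63, and 0.38 in decile 10, with Mylk. Krt14, Acta2, Tagln and Myh11 lay above the median of their decile, Krt5, Cnn1 and Trp63 close to it and Mylk below it. After the correction, Myh11 and Acta2 were the members called at day 7, out of 20.9% of all genes.

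**Figure D5:**
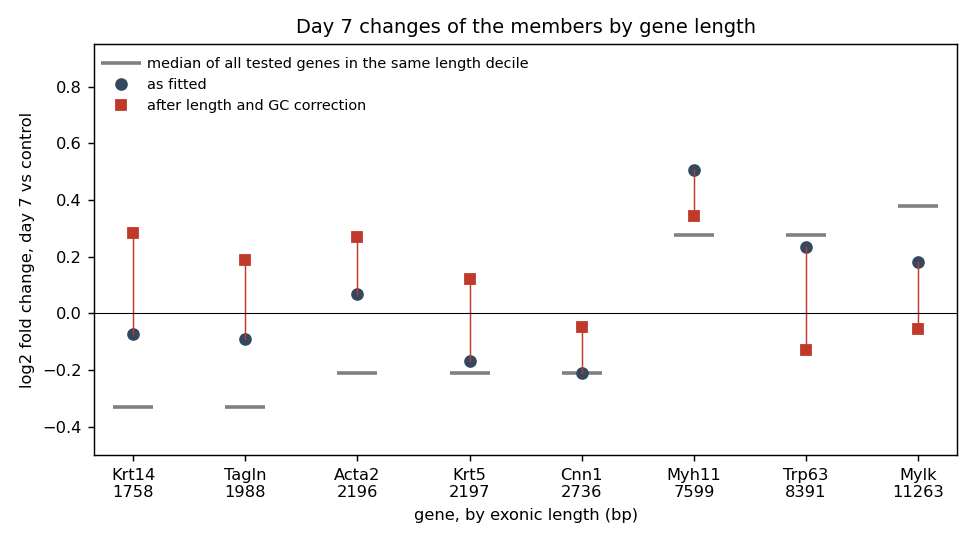
Log2 fold change at day 7 over control of the 8 tested members, ordered by exonic length in bases, as fitted (circles) and after the length and GC correction (squares), with the median of all tested genes of the same length decile (grey bars). The short members move up and the long members move down with the correction, and Myh11 stays above 0.3.

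Of 24 further genes of the smooth muscle filaments and their attachments, 7 rose at day 7, 4 fell and 13 did not pass, the share that fell being close to the 14.8% of all genes that fell (15.8% rose). The median log2 change was 0.15 (0.12 after the length correction, with 5 higher and 2 lower, Myl6 and Tpm1). With control library 2 or day 7 library 1 omitted 4 rose, and with control library 1, or day 7 library 2 or 3, omitted 2 fell. The genes that rose included proteins that anchor actin at the membrane: Vcl, which encodes vinculin, the filamin gene Flna and the alpha actinin gene Actn1. Vcl had 53.1, 48.9 and 36.6 CPM at day 7, 17.3, 25.0 and 25.8 CPM at day 14, and 6.89, 11 and 14.6 CPM in controls. The 3 groups did not overlap. Of all tested genes, 43.9% separated day 7 from control in either direction, 23.1% day 14 from control and 29.4% the days. The log2 change of Vcl was 2.09 at day 7 (SE 0.254, adjusted p = 0.000184) and 1.07 at day 14 (SE 0.254, adjusted p = 0.0595).

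Flna rose at day 7 by 0.54 (SE 0.097) and Actn1 by 0.44 (SE 0.088). The calls of Vcl, Flna and Actn1 at day 7 held after the length correction, and when any 1 library was left out. These proteins are also found at the adhesions of many other cell types.

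The genes that fell were the light chains Myl6 and Myl9, Csrp1 and Hspb1, of which Myl6 stayed called after the length correction. Csrp1 was then at −0.02 and Hspb1 at 0.08. Csrp1 was also not called with control library 1 omitted, nor Hspb1 with control library 2 or day 7 library 2 or 3 omitted. Myl6, the essential light chain, fell by 0.67 (SE 0.091, adjusted p = 4.88e-05; −0.54 after the length correction), and it rose at day 14 against day 7 by 0.44 (SE 0.091). Myl9 had 84.8, 67.5 and 70.0 CPM at day 7, 90.7, 74.2 and 90.0 CPM at day 14, and 105, 90.5 and 85.4 CPM in controls. Its fall at day 7 of 0.34 (SE 0.114, adjusted p = 0.0296) became 0.10 in the other direction after the length correction and it was not called when control library 1 or 2, or day 7 library 2 or 3, was omitted.

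Regulators of contraction, from receptor signalling to serum response factor, formed the last list, with 19 of 22 tested. At day 7, 8 rose, 2 fell and 9 did not pass (4 and 3 after the length correction), where 15.8% of all genes rose and 14.8% fell, and the median log2 change was 0.33, or 0.10 after it. Those that rose and stayed called after the correction were Mrtfb, a coactivator of serum response factor (0.80, SE 0.150), Ppp1r12a, the targeting subunit of myosin phosphatase (0.79, SE 0.117), the kinase gene Rock1, which restrains that phosphatase (0.90, SE 0.230; not called without control library 2), and the calcium channel Itpr1. The calmodulin genes Calm2 (−0.46, SE 0.091) and Calm3 fell, the second not called after the correction. Srf itself, at −0.31 (SE 0.119, adjusted p = 0.0549), did not pass at day 7. Myocd, the smooth muscle coactivator, had 7 counts in all. At day 14 Ppp1r12a alone passed (0.48, SE 0.117), though not after the correction or when control library 1 or 2, day 7 library 2 or any day 14 library was omitted, while 7 genes passed with control library 3 omitted.

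The genes whose levels ran closest to those of 2 members over the 9 libraries were sought among 10106 genes with a mean of at least 5 CPM, by the SD of the log2 ratio. For Krt14 these were Fbxl17 (0.059), Fah (0.082), Wbp2 (0.085) and Slc25a23 (0.086). For Acta2 they were Galk2 (0.060), Vezt (0.062), Prdm15 (0.068) and Rhot1 (0.072). Among the other members, Cnn1 came closest to Krt14, at 0.150 (370th), and Mylk closest to Acta2, at 0.138 (398th). Krt5 ranked 1213th for Krt14, and Myh11 ranked 3228th for Acta2. Genes that vary little rank high by this measure, and it shows no shared control.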

How the data were processed

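RNA-seq libraries of sublingual gland tissue, 9 in all, formed 3 groups of 3. The authors deposited whole-number counts per gene, not normalised. The build mm10 and the tools STAR, featureCounts and DESeq2 are named, per the submitters' processing notes. Settings, annotation and strand use are not given in the sources read. Of 54532 identifiers, 54495 matched a GENCODE M21 symbol, and coordinates are GRCm38, counted from 1. Pairs of libraries within a group all differed by more than counting noise (chi-square over its degrees of freedom, 9.191 to 123.746).

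The counts were fitted with edgeR 4.0.16 in R 4.3.3: filterByExpr (15348 genes tested, 39184 removed), TMM scaling and the robust two-sided quasi-likelihood F test, on a design of 3 groups with all 9 libraries, 6 residual degrees of freedom and no covariate. Adjusted p-values (Benjamini-Hochberg over all tested genes) come from this fit unless another is named. Intervals are 95% and rest on the spread between libraries, part of which may be technical. They do not cover a technical difference shared by a whole group. The floor of 3 counts does not cover what PCR adds. The script was checked on simulated counts, in which 200 of 15037 genes were changed. It recovered 85.1% of 2-fold and 19.4% of 1.5-fold changes, so a change of 1.5-fold can go uncalled. The simulation gave every gene the same spread and changed few genes, whereas 30.6% of tested genes passed at day 7. Its shares therefore do not give the recovery in the day 7 comparison. Alternatives were other scalings and filters, DESeq2 1.42.0 (Wald test), limma-voom with sample weights (limma 3.58.1), a fit of just the 6 libraries compared, a block for the replicate number, a threshold of 0.01 on the adjusted p, the omission of each library, and offsets for exonic length and GC content, from splines with 4 degrees of freedom for each, alone or with the block.

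The 10 members and the 12 further gene lists were chosen with earlier results of these data known, and so were the tests and alternatives. All 10 members are named in every comparison, with up to 4 genes of smallest unadjusted p from each list described, the 4 genes closest to Krt14 and to Acta2 and the near-identical copies of the members. Every other list gene and every family gene named was chosen after its value was seen. A list gene that these rules take is counted but not reported by name here.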

Additional observations from a re-analysis of the deposited data

How the results depend on the processing

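Myh11 remained called at day 7 in every alternative, and 0 members were called lower in any of the 3 comparisons under any of them. The number called higher at day 7 was 2 with the length correction, alone or with the replicate block (Acta2 and Myh11). At day 14 against control it was 2 with no filter on low counts (Mylk and Oxtr), 1 by DESeq2 (Mylk) and 3 by limma-voom. At day 14 against day 7 it was 2 with no filter (Cnn1 and Oxtr), 1 by DESeq2, 1 by limma-voom and 1 with the replicate block (Cnn1), and 0 to 1 over the fits that left out a library (1 without control library 3). Deviations of libraries with the same replicate number correlated at −0.112 to 0.037 over 9 pairs, and 0 of 9 libraries matched their own number best. These values showed no pairing by number. With 3 libraries in each group they cannot exclude a shared animal or batch, and the labels do not say what the numbers mark.

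Of 480 values of members under alternatives, 438 kept their direction and side of the threshold, 12 came past it and 30, none called with all libraries, changed sign. With the length correction alone, then with the block, the log2 changes that changed sign were 0.123 and 0.128 for Krt5, 0.283 and 0.279 for Krt14, −0.130 and −0.126 for Trp63, 0.188 and 0.163 for Tagln and −0.055 and −0.055 for Mylk at day 7, 0.114 and 0.125 for Tagln at day 14 (0.129 by limma-voom), and −0.005 and −0.008 for Krt14, −0.093 and −0.087 for Acta2 and −0.074 and −0.038 for Tagln between the days. Over the fits without 1 library, Krt14 at day 14 ranged from −0.05 to 0.162, Acta2 from −0.006 to 0.153 at day 7, 0.0 to 0.158 at day 14 and −0.062 to 0.081 between the days, and Tagln from −0.295 to 0.133, −0.169 to 0.112 and −0.163 to 0.265. Apart from the length correction's own construction, the cause was not tested.

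Over all genes, 2419 were called higher and 2273 lower at day 7, against 1288 and 1921 with the length correction (1195 higher with the block as well), 1295 and 1336 at an adjusted p under 0.01, and down to 1577 and 1513 without 1 library. At day 14 against control, 173 higher and 97 lower became 925 and 375 with no filter, 591 and 451 by DESeq2, 967 and 586 by limma-voom, 81 and 32 with the block, 57 and 47 with block and length correction, 67 higher with that correction, 102 and 55 with only the 6 libraries, 10 and 1 at an adjusted p under 0.01, and 5 to 1102 and 6 to 835 without 1 library, the highest without control library 3. Between the days, 571 and 440 became 941 and 827 by limma-voom, 146 and 118 at an adjusted p under 0.01, 723 lower with only the 6 libraries, and down to 208 and 119 without 1 library (676 lower without control library 3). Of 1020 values of called list genes under alternatives, 154 lost their call and 866 did not. Depth limits Krt15 and Oxtr, and the few counts of Tagln widen its intervals.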
